A study of Rattus norvegicus with 16 samples.

Results

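The initial segment of the epididymis was compared 18 h after ligation of the efferent ducts with the sham-operated initial segment. The comparison took the 4 arrays titled as 18 h of ligation and the 4 titled as sham control, 8 of the 16 arrays of the study, with every probe set that is not an array control. The arrays measured transcript levels in tissue from adult male Sprague-Dawley rats. Ligation was done on 1 side, and the sham operation on the other side of the same rat. The piece taken was the most proximal stretch of the initial segment, holding its zones 1a and 1b. The other 8 arrays came from tissue taken 6 h and 12 h after ligation, with 4 arrays at each time.

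The sham arrays carry a time of 0, and the labels do not state which rats, or how many hours after the operation, they came from. Each sham piece came from a rat that had also been operated on and ligated on the opposite side, so the sham group carries surgery and a ligated partner epididymis too. The labels call the 4 arrays of a group biological replicates without tying a number to a rat. Whole tissue was used, so epithelium, muscle, vessels, fibroblasts, immune cells and any luminal sperm all contributed RNA.

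The efferent ducts carry fluid and sperm from the testis into the epididymis, and the factors in that fluid act on the epithelium from its luminal side, which is called lumicrine signalling. The initial segment is the region most dependent on this supply: its principal cells maintain active ERK, a kinase that lies downstream of receptor tyrosine kinases such as Ros1, and they undergo apoptosis when the supply is removed. STAT proteins, activated by cytokine receptors, and NFKB proteins, held in the cytoplasm by inhibitors such as Nfkbia, are transcription factors of injury and inflammation. The study asked how ERK, STAT and NFKB signalling in this tissue respond to the loss of testicular fluid.

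Levels are on the log2 scale of the array normalization, where a difference of 1 is a doubling, and levels below 5 were not told from background. In all, 13410 probe sets reached 5 on at least 4 of the 16 arrays and were tested, and 10869 of them carried a single gene symbol, giving 8345 genes. A gene was called when its adjusted p from limma, corrected over all tested probe sets, was under 0.05, and only called genes are said to rise or fall. Values with ± are standard errors of the difference between 4 arrays and 4 arrays unless stated otherwise.

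The labels name no batch. The array sets used here were inferred from differences between arrays, control probe sets among them, and were not even across the groups. Replicates 1 and 2 differed from replicates 3 and 4 in 36.9% of tested probe sets, 4954 in number, with the group in the model. A bacterial dap control that lay between 6.98 and 7.36 on sham replicates 3 and 4 lay at the table's floor of 2.22 on the other 6 arrays. Within replicates 3 and 4, the difference between 18 h and sham cannot be told apart from that difference in array set, so the change within replicates 1 and 2 alone is printed in several of the paragraphs on genes. With 3 array sets as a block (replicates 1 and 2 of every group, replicates 3 and 4 of sham and 6 h, and replicates 3 and 4 of 12 h and 18 h), 905 genes were called. Of the 500 rises and 427 falls described next, 358 and 315 were also called with that block. Among the genes described here, the calls lost with it included those of Atf3 (adjusted p = 0.0542), Krt7 (0.0735), Oaz3 (0.0791), Pcna (0.0588) and Clock (0.0562). The 8 arrays held 41.2% to 41.8% of probe sets at or above 5, and their correlations over tested probe sets lay between 0.883 and 0.983. The hybridisation controls averaged 9.34 on 18 h replicate 1 and between 10.28 and 11.22 on the other 7 arrays. Over the 927 called genes described next, 18 h replicate 4 was the ligated array nearest the sham mean for 416, and sham replicate 1 was the sham array nearest the 18 h mean for 401. Left out in turn, these arrays gave 942 and 869 called genes.

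At 18 h, 1362 probe sets were called, 697 higher and 665 lower, which is 10.2% of those tested. Among genes, 500 were higher (5.99% of genes tested) and 427 were lower (5.12%), and 207 and 187 of these changed by at least 2-fold. The median change over all tested genes was 0.03. All 4 arrays at 18 h lay above all 4 sham arrays for 749 genes (8.98%) and below them for 557 (6.67%). All 927 called genes changed in the same direction in replicates 1 and 2 as in replicates 3 and 4. The calls were made over both pairs, so this is no separate check of them. The call held in each of the 8 fits that left out 1 array for 269 of the genes that rose and 243 of those that fell. Without sham replicate 4 the count of called genes was 603 and that of probe sets 879, the lowest of the 8 fits. The levels of selected genes of both directions are plotted array by array.

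**Figure D1:**
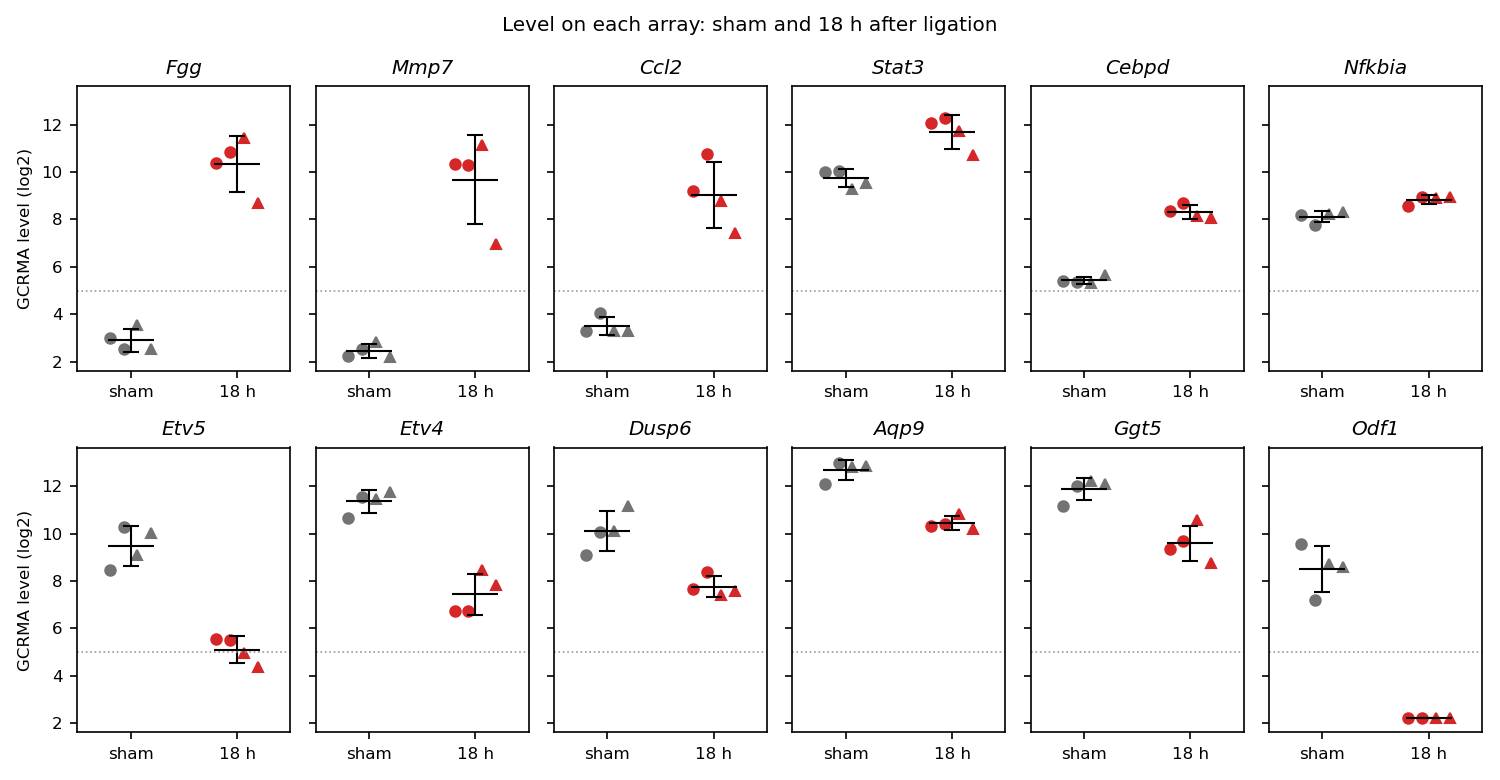
Level of 12 genes on each array (GCRMA, log2), sham in grey and 18 h after ligation in red. Circles are replicates 1 and 2, triangles replicates 3 and 4, horizontal bars the mean of 4 arrays, error bars the SD, and the dotted line the level of 5 below which signal was not told from background. The 2 groups do not overlap in any panel, and 18 h replicate 4 is the lowest of its group for Fgg, Mmp7, Ccl2 and Stat3.

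Of 17 ERK output genes matched on the array, 11 were tested; 6 fell and 0 rose, with a median change of -1.20, and in 5 of the 6 the call held in all 8 fits without 1 array. Etv1, Etv4 and Etv5 are the 3 ETS transcription factors of the PEA3 group, whose transcription depends on ERK activity. Etv5, which maintains the initial segment's gene programme, measured 8.45, 10.29, 9.09 and 10.02 on the sham arrays and 5.57, 5.51, 4.95 and 4.36 at 18 h. The groups were more than 2 units apart, and the difference was -4.37 ± 0.57 (adjusted p = 0.000212). Etv4 measured 10.64, 11.54, 11.46 and 11.75 in sham and 6.73, 6.72, 8.47 and 7.81 at 18 h, a difference of -3.92 ± 0.43 (adjusted p = 5.04e-05). Etv1 went from a mean of 9.25 to 6.97, a difference of -2.28 ± 0.19 (adjusted p = 5.16e-06). In replicates 1 and 2 alone the differences were -3.83 for Etv5, -4.37 for Etv4 and -2.56 for Etv1.

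The ERK-induced phosphatases that switch the kinase off fell as well. Dusp6, a cytoplasmic ERK phosphatase, measured 9.11, 10.08, 10.09 and 11.18 in sham and 7.66, 8.38, 7.40 and 7.58 at 18 h, a difference of -2.36 ± 0.33 (adjusted p = 0.000335). Dusp5, its nuclear counterpart, measured 10.87, 11.13, 10.86 and 11.02 in sham and 8.65, 8.97, 8.81 and 7.97 at 18 h, a difference of -2.37 ± 0.23 (adjusted p = 1.56e-05). The sham values of Dusp5 lay within 0.3 of each other and those of Dusp6 spanned 2 units, yet neither gene's groups overlapped. In replicates 1 and 2 alone Dusp5 differed by -2.20, and Dusp6 by -1.57 without a call (adjusted p = 0.0605), against -3.14 for Dusp6 in the other pair. Further tested Dusp6 probe sets stood at -2.9 (adjusted p = 0.000479) and at -2.31, the latter not called (adjusted p = 0.0575). The other member called was the cyclin Ccnd1 (-0.97, adjusted p = 0.0416), whose call was lost in 5 of the 8 fits without 1 array. Its other tested probe sets, 2 in number, fell by 1.53 (adjusted p = 0.000256) and 1.38 (adjusted p = 0.00184). Spry4, a feedback inhibitor of the pathway, differed by -0.18 ± 0.11 and was not called (adjusted p = 0.414).

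Receptors and their ligands lie upstream. Of 20 tested genes of the tyrosine kinase group, 0 were called higher and 2 lower, beside 5.99% and 5.12% of all tested genes. The median was 0.07. Those called were Igf1r and Pdgfrl, a secreted protein that resembles a receptor. Without sham replicate 4, or without 18 h replicate 1, 2 or 3, 1 call was left. Ros1, the receptor whose loss prevents the initial segment from forming, measured 10.29, 10.61, 10.88 and 10.92 in sham and 9.92 to 10.34 at 18 h. The ranges met, and the difference of -0.54 ± 0.26 was not called (adjusted p = 0.252). With the array set block Ros1 was called (adjusted p = 0.0242), as it was with the 2 pairs of replicates as a block (adjusted p = 0.0464). In replicates 1 and 2 alone it differed by -0.49 without a call (adjusted p = 0.126). Igf1r, the receptor of insulin-like growth factor I, was called at -1.08 (adjusted p = 0.0446) and lost the call in 7 of the 8 fits, while its second tested probe set was at -1.33 (adjusted p = 0.00424). With the array set block the list's calls numbered 7.

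Immediate early genes, which growth factors and stress induce, rose. Of 18 tested, 13 rose and 1 fell, with a median change of 0.82, and 8 of the 13 held the call in all 8 fits. Without 18 h replicate 2, or with the array set block, the list's calls numbered 9. Egr1, a zinc finger factor induced within minutes of many stimuli, measured 6.52, 8.12, 6.84 and 7.5 in sham and 9.38, 9.54, 9.44 and 9.46 at 18 h, a difference of 2.21 ± 0.32 (adjusted p = 0.000449). The 18 h arrays spanned 0.16 where the sham arrays spanned 1.6, and in replicates 1 and 2 alone the difference was 2.14 without a call (adjusted p = 0.0614). Jun, an AP-1 subunit, rose by 1.68 ± 0.25 (adjusted p = 0.000665), from a mean of 9.16 to 10.84. Myc, which drives growth and can sensitise cells to death, went from a mean of 4.18 to 6.38 (adjusted p = 0.000155), and Atf3, a stress-induced repressor, from 2.35 to 6.04 (adjusted p = 0.00670). Their sham means lie below 5, and with every array under 5 counted as 5 the rises were at least 1.38 for Myc and 1.04 for Atf3. Klf6 rose by 1.65 ± 0.31, Zfp36, which destabilises cytokine mRNAs, by 1.21 ± 0.23, and Klf10 by 0.68 ± 0.10. Dusp1, a nuclear phosphatase of MAP kinases listed here with the steroid-responsive genes, rose by 1.94 ± 0.46 (adjusted p = 0.0157), a call lost in 2 of the 8 fits.

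Among the STAT genes, Stat3 itself rose. It measured 10.01, 10.06, 9.28 and 9.55 in sham and 12.05, 12.29, 11.73 and 10.70 at 18 h, a difference of 1.97 ± 0.30 (adjusted p = 0.000722), or 3.91-fold. The lowest 18 h array, replicate 4, lay above the highest sham array by more than 0.6, and the difference over the first pair was 2.13. A second tested Stat3 probe set differed by 1.68 ± 0.60 and was not called (adjusted p = 0.0999). Stat2 rose by 1.07 ± 0.18, from 7.20 to 8.27 (adjusted p = 0.00146). Of 16 tested JAK, STAT and cytokine receptor genes, 4 rose and 0 fell, with a median of 0.49; the calls of Stat5a and Stat6 were each lost in 6 of the 8 fits. Without sham replicate 3 or 4, or without 18 h replicate 1 or 2, 2 calls were left.

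Targets and feedback genes of STAT3 rose in 9 of 14 tested cases, with 0 falls and a median of 0.97, and 6 of the 9 held in all 8 fits. Cebpd, a C/EBP transcription factor of the acute phase, had the smallest adjusted p of the list (3.61e-06). It measured 5.39, 5.36, 5.33 and 5.65 in sham and 8.34, 8.70, 8.15 and 8.06 at 18 h, a difference of 2.88 ± 0.23. All 4 ligated arrays were more than 2 units above sham. Icam1, an adhesion molecule for leukocytes, rose by 1.95 ± 0.29, Bcl6, a transcriptional repressor, by 2.17 ± 0.37, and Ptpn2, a phosphatase that acts on JAK and STAT proteins, by 1.08 ± 0.19. Bcl3, a nuclear IkB protein, rose from 4.66 to 6.84, and Cish, a SOCS-family inhibitor of STAT5 signalling, from 4.62 to 5.76. With arrays under 5 counted as 5, these 2 rises were at least 1.84 and 0.76. Socs3, the feedback inhibitor of STAT3, was not tested: its probe set averaged 2.28 in sham and 3.98 at 18 h, below 5 in both groups.

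Of 13 tested acute phase genes, 4 rose and 0 fell. Fgg and Fga encode the gamma and alpha chains of fibrinogen, a clotting protein made by the liver and by injured epithelia. Fgg measured 2.99, 2.53, 3.55 and 2.53 in sham and 10.36, 10.86, 11.43 and 8.68 at 18 h, a measured difference of 7.43 ± 0.64 (adjusted p = 7.40e-06). Fga measured 3.83, 3.83, 3.77 and 2.93 in sham and 10.77, 10.99, 11.41 and 8.63 at 18 h, a difference of 6.86 ± 0.56 (adjusted p = 5.16e-06). All sham arrays lay below 5 and all ligated arrays above 8, so the bounds with sham counted as 5 were at least 5.33 (40.3-fold) for Fgg and 5.45 (43.7-fold) for Fga. Over replicates 1 and 2 alone Fgg differed by 7.85 and Fga by 7.05. A second Fga probe set differed by 3.76 ± 0.83 (adjusted p = 0.00937). The 3 probe sets of Fgb, the beta chain, sat at the floor of 2.22 on average in every group and gave no measurement.

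The other called acute phase genes were A2m and Steap4. A2m, alpha-2-macroglobulin, a protease inhibitor induced by interleukin 6 in rat liver, measured 4.15, 4.15, 4.15 and 3.89 in sham and 8.99, 9.64, 9.17 and 6.34 at 18 h (adjusted p = 0.000897). The groups were apart, with a rise of at least 3.53 when sham was counted as 5. Steap4, a metalloreductase induced by inflammatory cytokines, rose by 2.51 ± 0.41, from 8.12 to 10.63. The median change of the 13 acute phase genes was 0.90.

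NFKB subunits and targets rose in 10 of 22 tested cases, with 0 falls and a median of 0.56, and 8 of the 10 held in all 8 fits. Nfkbia, the inhibitor that NFKB itself induces, measured 8.18, 7.78, 8.23 and 8.31 in sham and 8.58, 8.93, 8.89 and 8.95 at 18 h, a difference of 0.71 ± 0.13 (adjusted p = 0.00263). The step was small, and the lowest ligated array still exceeded the highest sham array. Over replicates 1 and 2 alone the difference was 0.78 and not called (adjusted p = 0.0781). Irf1, an interferon regulatory factor shared by the STAT and NFKB routes, measured 8.23, 7.98, 8.17 and 7.98 in sham and 9.56, 9.72, 9.46 and 9.29 at 18 h, a difference of 1.42 ± 0.12 (adjusted p = 7.40e-06). Relb, a subunit of the non-canonical pathway, went from 4.55 to 5.79 (adjusted p = 0.000988), and Birc3, an inhibitor of apoptosis, from 4.32 to 5.89 (adjusted p = 0.00128). Their bounds with low arrays counted as 5 were at least 0.79 and 0.89. Tnip2, an adaptor that restrains NFKB, rose by 1.33 ± 0.24.

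Chemokine transcripts were led by Ccl2, which attracts monocytes. Ccl2 measured 3.29, 4.06, 3.31 and 3.29 in sham and 9.22, 10.76, 8.77 and 7.42 at 18 h, a measured difference of 5.56 ± 0.88 (adjusted p = 0.000930) and a rise of at least 4.04 (16.5-fold) with sham counted as 5. Replicates 1 and 2 differed from their sham by 6.32, and replicates 3 and 4 by 4.80. Cxcl16, a membrane-bound chemokine, rose by 1.26 ± 0.25, from 7.36 to 8.62, with 18 h replicate 4 at 7.70 and the other 3 between 8.88 and 8.98. These were the 2 called members of 12 tested chemokines, whose median was 0.81, and without 18 h replicate 4, or with the array set block, the count was 5. Monocyte and dendritic cell markers, whose part was not tested, had a median change of 1.35 beside this, and of 1.71 in the first pair of replicates.

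Interferon response genes rose in 10 of 24 tested cases, with 0 falls and a median of 0.87, and 9 of the 10 held in all 8 fits. Igtp, an immunity-related GTPase, measured 6.23, 5.32, 5.13 and 5.46 in sham and 8.22, 8.37, 7.95 and 6.95 at 18 h, a difference of 2.34 ± 0.29 (adjusted p = 0.000123). Its groups did not overlap. The second tested Igtp probe set, at 1.94, was not called (adjusted p = 0.0547). Gbp2, a guanylate-binding protein, rose by 1.72 ± 0.24, and the partners Dtx3l and Parp9, a ubiquitin ligase and its ADP-ribosyltransferase, by 1.67 ± 0.16 and 1.60 ± 0.27. Antigen presentation genes rose in 5 of 21 cases with a median of 0.35. These were the immunoproteasome subunits Psmb9 (1.19 ± 0.12), Psmb10 (0.95 ± 0.12) and Psmb8 (1.08 ± 0.22), the proteasome activator Psme2 (0.67 ± 0.16) and the peptide transporter Tap1 (1.92 ± 0.23). Ubd, a ubiquitin-like protein induced by interferon gamma and tumour necrosis factor, rose by 3.41 ± 0.62, from 6.06 to 9.47.

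The stretch just before the transcription start was read for the STAT, NFKB and AP-1 genes that rose. The RefSeq promoter table (GRCr8) lists 24206 genes once, 6590 of them tested here and 113 of them named by the rule for naming genes. The letters TTCNNNGAA, a STAT core, stood on either strand in the 250 bases before the start of 7.44% of all listed genes. They stood in 5.89% of tested genes, in 8.75% of those that rose (33 of 377) and in 5.33% of those that fell (18 of 338). GGGNNTTTC, an NFKB core, stood in 3.67%, 3.63%, 5.57% and 2.07% of the same sets. TGANTCA, an AP-1 core, stood in 6.35%, 4.19%, 6.10% and 4.44%. The other motifs searched were AAANNGAAA for interferon-regulated genes (10% of all, 6.84% of tested, 11.9% of those that rose and 5.92% of those that fell), CCGGAAG for ETS factors (8.06%, 17.3%, 9.81% and 10.9%), TTGCNNAA for C/EBP (9.26%, 7.27%, 5.31% and 6.51%) and TGACGTCA for CREB (1.72%, 3.0%, 5.04% and 0.888%). STAT and ETS letters overlap within the Cish stretch. These shares are descriptions of letters, without a test of binding.

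The windows below are shown because their genes carry the STAT, NFKB or AP-1 letters and rose in the results above; capitals mark 1 match of the motif, and each window reads 5′ to 3′ along the gene. Irf1 lies at chr10:38417773-38417821 (plus strand), Icam1 at chr8:27829718-27829766 (plus), Cish at chr8:116850813-116850861 (plus), Igtp at chr10:42874913-42874961 (plus) and Steap4 at chr4:27054807-27054855 (minus). Nfkbia lies at chr6:78597074-78597122 (minus), Tap1 at chr20:4668570-4668618 (minus) and Mmp7 at chr8:13132943-13132989 (plus), all upstream of the listed start.
Irf1, STAT: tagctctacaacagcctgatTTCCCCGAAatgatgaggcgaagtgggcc
Icam1, STAT: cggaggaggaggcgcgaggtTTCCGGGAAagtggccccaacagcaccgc
Cish, STAT: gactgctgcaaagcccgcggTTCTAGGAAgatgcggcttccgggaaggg
Igtp, STAT: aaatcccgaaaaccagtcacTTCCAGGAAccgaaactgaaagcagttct
Steap4, STAT: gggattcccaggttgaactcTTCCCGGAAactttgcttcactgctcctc
Nfkbia, NFKB: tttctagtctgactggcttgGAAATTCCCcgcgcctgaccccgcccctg
Tap1, NFKB: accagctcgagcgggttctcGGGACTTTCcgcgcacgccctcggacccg
Mmp7, AP-1: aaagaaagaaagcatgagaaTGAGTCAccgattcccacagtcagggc
The Nfkbia window holds its NFKB letters on the opposite strand. The Cish stretch has 4 matches to the STAT core, and the window shown holds another of them in lower case.

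Gene lists are plotted by the share of their tested members that was called, beside the share over all genes.

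**Figure D2:**
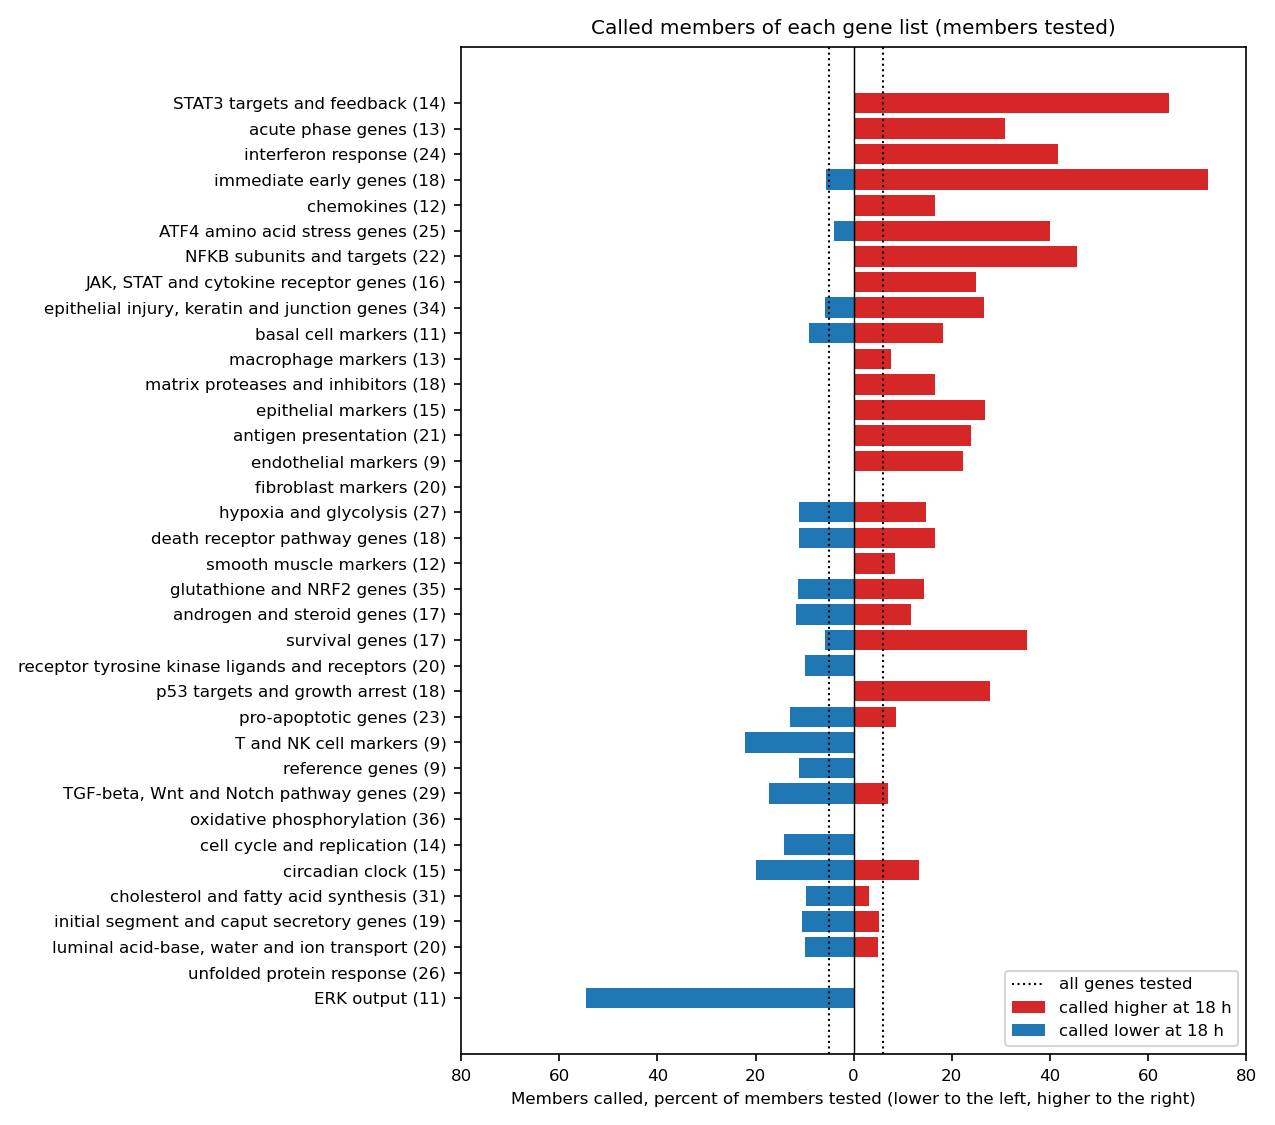
Percent of tested members called higher (red, to the right) or lower (blue, to the left) at 18 h against sham, for each list with 9 or more tested members, ordered by median change, with the number tested in brackets. Dotted lines are the shares over all tested genes, 5.99% higher and 5.12% lower. ERK output has the longest bar to the left, and the immediate early and STAT3 target lists the longest to the right.

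Transcripts of cell death and survival moved in both directions. Of 23 tested pro-apoptotic genes, 2 rose and 3 fell, beside 5.99% and 5.12% of all tested genes, with a median of 0.03. Bcl2l11, which encodes the BH3-only protein Bim and is held down by ERK, measured 4.77, 5.48, 6.22 and 6.26 in sham and 7.40, 7.13, 8.18 and 7.58 at 18 h, a difference of 1.89 ± 0.31 (adjusted p = 0.00126). It was the only called pro-apoptotic member whose call held in all 8 fits. The falls of Bok (-0.45), Casp8 (-0.66) and Dapk1 (-0.77) and the rise of Dffa (0.59) were each lost in 3 to 7 of the 8 fits. A second tested probe set was at -0.63 for Bok (adjusted p = 0.00895) and at -0.81 for Casp8 (adjusted p = 0.00122). That of Dapk1, at -0.93, was not called (adjusted p = 0.0618). The list's 5 calls became 1 without sham replicate 2 or 4, 2 without 18 h replicate 1 or 2, and 3 without sham replicate 1 or 3 or 18 h replicate 3. Of 18 death receptor genes, Tnfrsf21 (2.48 ± 0.37), a death-domain receptor, and the ligand Tnfsf10 (1.25 ± 0.20), known as TRAIL, rose in all 8 fits. Tnfrsf14 fell from 7.0 to 4.66 (adjusted p = 5.67e-05, at least 1.91) and Traf5, an adaptor, by 1.45 ± 0.26. Ripk1 was called as the third rise of that list and lost the call in 7 fits. Another tested Ripk1 probe set, at 1.04, was not called (adjusted p = 0.257).

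Survival genes rose in 6 of 17 cases and fell in 1, with a median of 0.07. These 7 calls became 11 with the array set block, 3 without 18 h replicate 2, and 4 without 18 h replicate 3 or sham replicate 2 or 3. Tmbim1, a member of a family of membrane proteins that restrain death signals, rose by 1.43 ± 0.18, and Birc3 rose as above. Mcl1, a BCL2-family survival protein, rose by 0.69 (adjusted p = 0.0207) and lost the call in 3 of 8 fits. Another tested Mcl1 probe set, at 0.76, was not called (adjusted p = 0.142). Bag1, a co-chaperone, fell by 0.61 ± 0.13. Bcl2l1, which encodes Bcl-xL, measured 4.44, 4.71, 3.78 and 3.24 in sham and 6.07, 5.63, 3.42 and 3.36 at 18 h. The ranges overlap, and the difference of 0.58 ± 0.66 was not called (adjusted p = 0.689). In replicates 1 and 2 alone Bcl2l1 differed by 1.28 and was called (adjusted p = 0.0303), against -0.11 in the other pair. With the array set block it was called too (adjusted p = 0.00235).

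Growth arrest genes rose in 5 of 18 tested cases, with 0 falls and a median of 0.05. Gadd45a, a stress-induced arrest gene, measured 7.04, 7.02, 7.01 and 7.0 in sham and 8.40, 8.87, 8.54 and 8.68 at 18 h, a difference of 1.61 ± 0.13 (adjusted p = 4.93e-06). The sham arrays spanned 0.04, and the 2 groups were more than 1.3 apart. Cdkn1a, the cyclin-dependent kinase inhibitor p21, measured 6.78, 7.10, 6.22 and 5.47 in sham and 8.84, 8.94, 9.18 and 8.31 at 18 h, a difference of 2.42 ± 0.40 (adjusted p = 0.00132). Gadd45g rose by 1.27 ± 0.22 and Btg1, an antiproliferative gene, by 0.72 ± 0.16. Of 14 tested cell cycle and replication genes, 0 rose and 2 fell, and 1 call was left without sham replicate 2 or 4 or 18 h replicate 2 or 3, and 0 with the array set block. Pcna, the sliding clamp of DNA replication, fell by 0.44 ± 0.10.

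Amino acid stress genes driven by ATF4 rose in 10 of 25 cases and fell in 1, with a median of 0.70, and 4 of the rises held in all 8 fits. Of the 11 calls, 4 were left without sham replicate 2 or 4, and 5 or 6 without any other array but 18 h replicate 4, and 7 with the array set block. Slc7a11, the cystine importer that feeds glutathione synthesis, measured 4.59, 4.40, 4.90 and 4.70 in sham and 9.01, 9.58, 10.01 and 8.18 at 18 h (adjusted p = 0.00194), a rise of at least 4.19 with sham counted as 5. Wars1, tryptophanyl-tRNA synthetase, rose by 1.22 ± 0.21, Shmt2, a mitochondrial serine enzyme, by 0.91 ± 0.19, and Ddit4, an inhibitor of growth signalling, by 0.77 ± 0.16. Ddit3, known as CHOP, rose by 2.00 ± 0.53 (adjusted p = 0.0285) and lost the call in 5 fits. Of the 26 tested genes of the unfolded protein response, 0 were called by limma, 4 had an unadjusted p under 0.05, the median was -0.18, and 1 was called without sham replicate 1 or without 18 h replicate 2. The same held for oxidative phosphorylation, with 0 of 36 called, 0 at an unadjusted p under 0.05 and a median of -0.03.

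Glutathione genes split. Of 35 tested glutathione and NRF2 genes, 5 rose and 4 fell, beside 5.99% and 5.12% of all tested genes, with a median of 0.10. Gpx2, an epithelial glutathione peroxidase, measured 2.22, 2.55, 2.97 and 3.43 in sham and 7.11, 6.04, 8.10 and 4.66 at 18 h (adjusted p = 0.00639), a rise of at least 1.56. Mt2A, a metallothionein, rose by 2.16 ± 0.30 and Txnrd1, thioredoxin reductase, by 0.85 ± 0.14. A second tested Txnrd1 probe set, at 0.66, was not called (adjusted p = 0.204). Ggt5, a gamma-glutamyl hydrolase that acts on leukotriene C4 and glutathione, measured 11.18, 12.02, 12.22 and 12.10 in sham and 9.33, 9.69, 10.56 and 8.76 at 18 h, a difference of -2.30 ± 0.36 (adjusted p = 0.000790). Ggt1, the luminal glutathione-degrading enzyme typical of the initial segment, fell by 0.76 ± 0.17, from 12.35 to 11.59 (adjusted p = 0.00941).

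Some fluid and nutrient transport genes fell. Aqp9, the aquaglyceroporin of the apical membrane of principal cells, measured 12.07, 12.97, 12.82 and 12.83 in sham and 10.33, 10.42, 10.84 and 10.18 at 18 h, a difference of -2.23 ± 0.22 (adjusted p = 2.34e-05). Clcn3, an endosomal chloride exchanger, fell by 0.91 ± 0.17. Its other tested probe sets, at -1.05, -0.56 and -0.56, were not called (adjusted p = 0.168, 0.0614 and 0.0683). Of 20 tested genes of luminal acid-base, water and ion transport, Aqp9 and Clcn3 fell and Nherf1, a scaffold of apical transporters, rose by 0.59 ± 0.14. The median of this list was -0.1, and 5.12% of all tested genes fell and 5.99% rose. A second tested Nherf1 probe set, at 0.56, was not called (adjusted p = 0.324). Mfsd2a, a carrier of lysophosphatidylcholine, measured 5.80, 8.45, 8.70 and 8.86 in sham and 2.78, 2.78, 2.51 and 2.81 at 18 h (adjusted p = 5.04e-05). Slc52a3, a riboflavin transporter, measured 6.75, 9.40, 9.25 and 9.27 in sham and 4.03, 3.81, 4.41 and 2.78 at 18 h (adjusted p = 0.000911). Sham replicate 1 lay more than 2 units below the other sham arrays for both, and the falls were at least 2.95 and 3.67 with low arrays counted as 5.

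Tested genes of the region's secretory programme were otherwise mostly not called. Of 51 initial segment and caput genes listed, 22 were matched on the array and 19 were tested, so much of the list was not measured. Of the 19, 1 rose and 2 fell, with a median of -0.09. The 2 falls were Ggt1 and Etv5, an enzyme and a transcription factor rather than secreted proteins. Cst8, a secreted cystatin of the initial segment, measured 12.22, 13.02, 13.54 and 13.50 in sham and 12.46, 12.42, 13.03 and 12.40 at 18 h, a difference of -0.49 ± 0.55 (adjusted p = 0.682). Penk, proenkephalin, differed by -0.08 ± 0.68 (adjusted p = 0.969). Both transcripts were above 12 on all 8 arrays, and the errors leave changes of about a unit undecided. Eppin, called at 0.72 (adjusted p = 0.0425), lost the call in 6 of the 8 fits.

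Among the remaining large falls, Pdgfrl, a secreted protein resembling the receptor of platelet-derived growth factor, had the smallest adjusted p of the named genes (4.22e-07). It measured 11.04, 10.90, 11.25 and 10.91 in sham and 6.02, 5.56, 5.92 and 4.23 at 18 h, a difference of -5.60 ± 0.34. Nkd2, an inhibitor of Wnt signalling, measured 11.35, 11.47, 10.99 and 11.04 in sham and 5.77, 5.56, 6.14 and 6.36 at 18 h, a difference of -5.26 ± 0.35 (adjusted p = 9.38e-07). Neither gene's groups came within 4 units of each other. Hey2, a Notch-responsive repressor, fell from 7.13 to 3.97 (adjusted p = 0.000197), while Notch1 rose by 0.82 ± 0.18. Egln3, an oxygen-sensing hydroxylase, fell by 2.78 ± 0.32. Mogat1, a monoacylglycerol acyltransferase, fell from 8.58 to 2.99 (adjusted p = 1.56e-05) and Acy3, an aminoacylase, from 7.42 to 3.33 (adjusted p = 5.16e-06). Cmahp fell by 5.07 ± 1.13 (adjusted p = 0.0105). With arrays under 5 counted as 5, the falls were at least 2.11 for Hey2, 3.58 for Mogat1 and 2.42 for Acy3.

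Epithelial injury genes rose in 9 of 34 cases and fell in 2, with a median of 0.47. Mmp7, matrilysin, an epithelial protease of injury and repair, measured 2.23, 2.54, 2.82 and 2.22 in sham and 10.33, 10.30, 11.13 and 6.95 at 18 h (adjusted p = 6.53e-05). The rise was at least 4.68 (25.6-fold), and 18 h replicate 4 lay more than 3 units below the other ligated arrays. Krt17, a keratin of stressed and basal epithelia, measured 2.49, 2.42, 2.49 and 2.29 in sham and 8.69, 8.77, 10.27 and 7.86 at 18 h (adjusted p = 0.00173), a rise of at least 3.90. Elf3, an epithelial ETS factor, rose by 2.97 ± 0.34, from 6.23 to 9.20, Krt7 by 2.18 ± 0.49, Cldn4, a tight junction protein, by 1.44 ± 0.22, and Itgb4, a hemidesmosome integrin, by 1.08 ± 0.22. Cldn1, a claudin of basal cells here, fell by 0.99 ± 0.22. Its other tested probe sets, at -0.6 and -1.28, were not called (adjusted p = 0.285 and 0.121). Klf5, a Krüppel-like factor of proliferating epithelia, rose from 4.47 to 7.71 (adjusted p = 0.00475), at least 2.66 with low arrays counted as 5.

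Sperm transcripts fell to or near the floor. Of 6 tested spermatid and sperm transcripts, 4 fell, with a median of -4.33, and all 4 held in the 8 fits. Odf1, an outer dense fibre protein of the tail, measured 9.54, 7.20, 8.70 and 8.59 in sham and 2.22 on all 4 arrays at 18 h (adjusted p = 0.00112), a fall of at least 3.51. Prm1, the protamine that packs sperm DNA, fell from 8.91 to 4.36, Smcp, a mitochondrial capsule protein, from 7.94 to 3.31, and Oaz3, a germ cell antizyme, from 6.33 to 2.22. These falls were at least 3.91, 2.94 and 1.74 with arrays under 5 counted as 5. The summed level of the 14 matched genes lay between 8.98 and 11.53 in sham and between 7.56 and 7.77 at 18 h. In tissue of mixed cells, fewer cells of a type and less RNA in each cannot be told apart, here or in any other fall.

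Markers of immune cells are given beside the chemokine and interferon rises, and their part in these rises was not tested. Of 13 tested macrophage markers, Cd14 was called (1.92 ± 0.46, adjusted p = 0.0158, lost without 18 h replicate 1 or 2) and the median was 0.41, with 0.66 over the first pair of replicates and 0.18 over the second. With the array set block 4 of them were called higher. Their summed level lay between 11.98 and 12.79 in sham and between 12.06 and 13.21 at 18 h, and these ranges overlap. The 12 matched neutrophil markers and the 6 matched B cell markers were below 5 on all 8 arrays, summing to at most 6.40 and 5.61. Of 4 tested monocyte and dendritic cell markers 0 were called by limma, 1 had an unadjusted p under 0.05, 1 was called without 18 h replicate 4, and 3 were called higher with the array set block or in replicates 1 and 2 alone. All 4 lay above sham on average, and the sum of the list ran from 8.82 to 9.54 in sham and from 9.23 to 11.24 at 18 h. Of 9 tested T and NK cell markers, Cd6 (7.22 to 4.58) and Klrb1a (-1.78 ± 0.24) fell and 0 rose. The median of the 9 was -0.01, and 11 of the 22 matched T and NK cell markers lay under 5 on all 8 arrays. The 20 fibroblast markers gave 0 calls by limma, 1 unadjusted p under 0.05 and a median of 0.24.

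Other tissue markers differed between the pairs of replicates. For the 4 tested adipocyte markers the median was 1.26 over replicates 1 and 2, and -1.33 over replicates 3 and 4. Lpl, lipoprotein lipase, measured 8.38 and 8.62 on 18 h replicates 1 and 2 and 5.62 and 4.45 on replicates 3 and 4, against 5.79 to 6.96 in sham. The summed level of the 12 matched adipocyte markers spanned 6.91 to 10.09 at 18 h and 7.77 to 8.69 in sham. Epithelial markers summed to 14.42 to 14.57 in sham and 14.57 to 14.91 at 18 h, with 4 of 15 tested members higher. Basal cell markers summed to 11.48 to 11.90 and 11.97 to 12.42, with Krt17 and Itgb4 higher and Cldn1 lower among 11 tested. The part of tissue make-up in the changes was not tested.

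**Figure D3:**
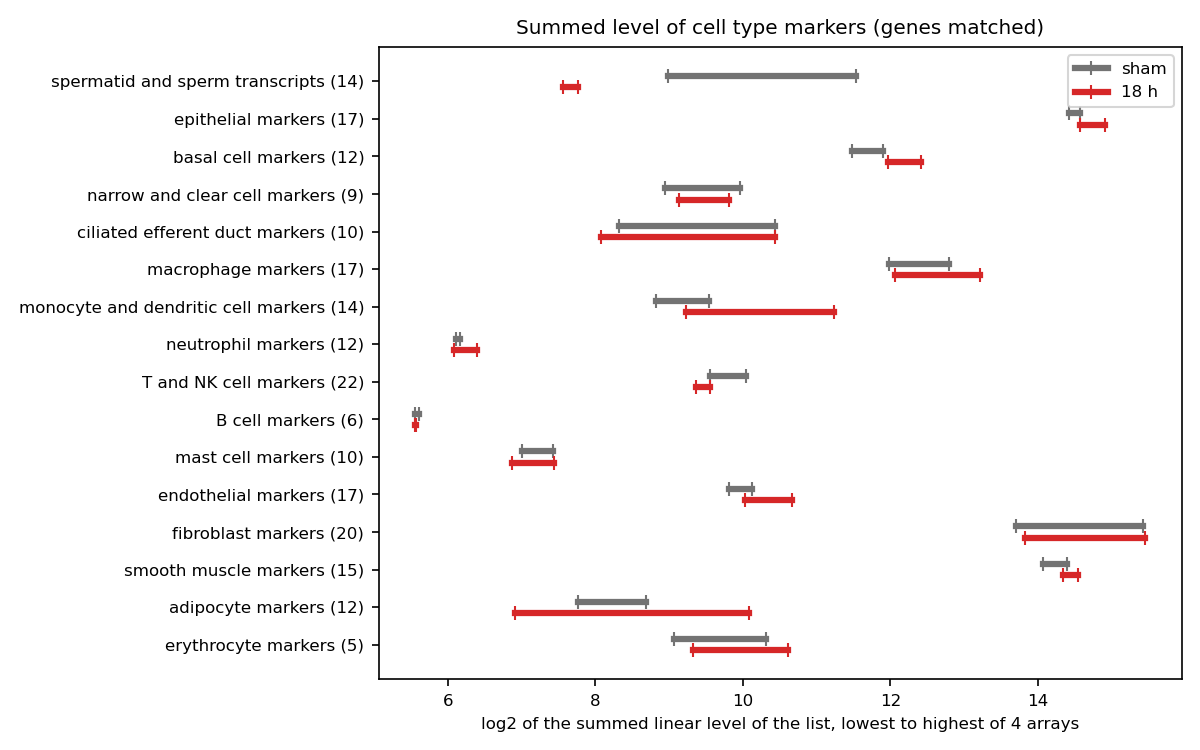
Summed level of the matched marker genes of each cell type (log2 of the sum of linear levels, number matched in brackets), drawn from the lowest to the highest of 4 sham arrays (grey) and 4 arrays at 18 h (red). The sperm ranges are apart, 8.98 to 11.53 against 7.56 to 7.77. So are the basal cell ranges (11.48 to 11.9 against 11.97 to 12.42) and the T and NK cell ranges (9.56 to 10.04 against 9.36 to 9.55). The macrophage, fibroblast and neutrophil ranges overlap.

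The named genes are plotted by their change in each pair of replicates.

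**Figure D4:**
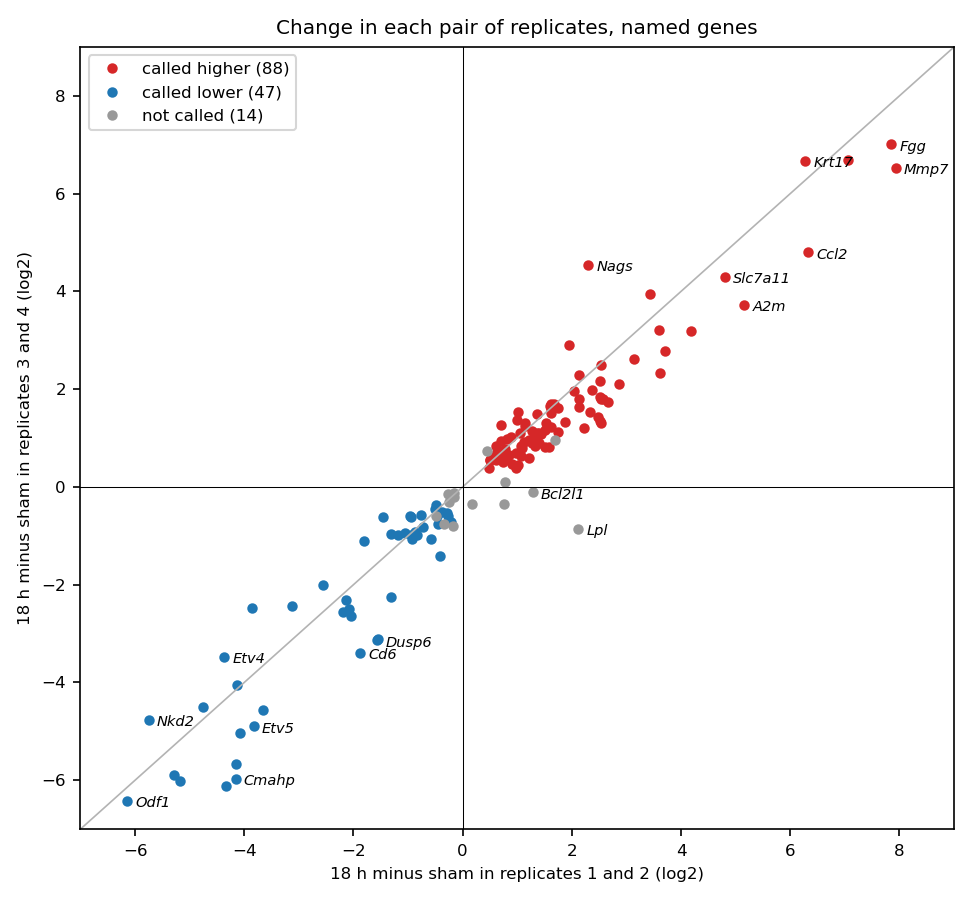
Difference between 18 h and sham (log2) in replicates 1 and 2 (horizontal) against replicates 3 and 4 (vertical) for the 149 named genes tested, red where called higher, blue where called lower and grey where not called, with the line of equality. The called genes were chosen over both pairs and keep their sign in both, while Lpl, not called, stands at 2.12 and -0.86.

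The earlier times share the same 4 sham arrays, so the differences from sham are not independent of one another, and the direct test between times is given. Between 18 h and 6 h, 1057 probe sets (7.88%) were called, 475 higher and 582 lower at 18 h. Of the genes called against sham, 277 that rose and 256 that fell were also called between 18 h and 6 h, counted in either direction. Without 6 h replicate 3 the count of probe sets was 661, and without 6 h replicate 1 it was 686. Between 18 h and 12 h, limma called 0 probe sets (0.0%), with a lowest adjusted p of 0.135, while 877 had an unadjusted p under 0.05. Weighting arrays by their quality called 56. Without 18 h replicate 4 the count was 53, without 12 h replicate 3 it was 22, and without 18 h replicate 3 it was 1.

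Gene by gene, some had reached their level by 6 h and others had not. Dusp6 stood at -2.70, -2.42 and -2.36 from sham at 6, 12 and 18 h, and its 18 h minus 6 h difference was 0.34 (adjusted p = 0.609). Dusp5 stood at -2.50, -3.42 and -2.37. Of the 6 tested sperm transcripts 1 was called lower at 6 h. Odf1 stood at -4.78, -5.74 and -6.29, and its 6 h value was not called (adjusted p = 0.0905). The PEA3 factors came down later: Etv4 stood at -0.56, -3.08 and -3.92, with an 18 h minus 6 h difference of -3.36 (adjusted p = 0.000410). Aqp9 stood at -0.03, -1.42 and -2.23 and Ggt5 at 0.08, -1.30 and -2.30, with 18 h minus 6 h differences of -2.19 (adjusted p = 6.88e-05) and -2.38 (adjusted p = 0.00131).

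Among the rises, Fgg stood at 4.22, 7.11 and 7.43 and Ccl2 at 1.01, 5.16 and 5.56. Mmp7 stood at 0.63, 5.25 and 7.23, with 18 h above 6 h by 6.60 (adjusted p = 0.000321). Krt17 stood at -0.01, 2.11 and 6.47, Slc7a11 at 1.52, 1.64 and 4.55, and Atf3 at 0.10, 1.17 and 3.69. Stat3 stood at 0.67, 1.10 and 1.97 and Relb at -0.20, 0.13 and 1.23. Relb was above its 6 h level by 1.43 (adjusted p = 0.000677). No difference between 12 h and 18 h for any of these genes passed the test.

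**Figure D5:**
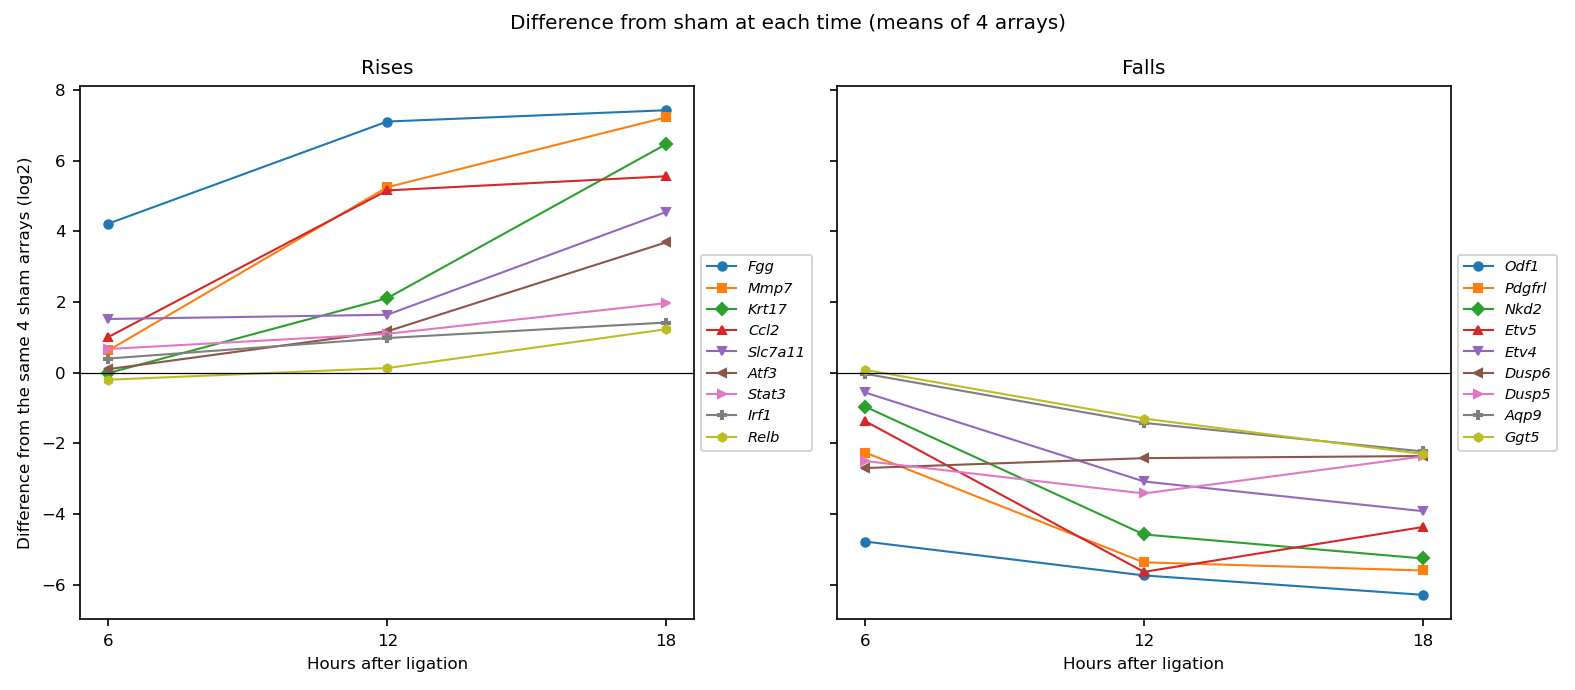
Difference from the same 4 sham arrays (log2, means of 4 arrays) at 6, 12 and 18 h after ligation, for 9 genes that rose (left) and 9 that fell (right) at 18 h. Dusp5 (-2.50) and Dusp6 (-2.70) were called lower at 6 h and Odf1 (-4.78) was not, whereas Krt17 and Atf3 lie near 0 at 6 h and at 6.47 and 3.69 at 18 h.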

How the data were processed

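Biotin-labelled cRNA from total RNA was hybridised to 16 Affymetrix rat arrays, 4 in each group, and the 8 of sham and 18 h are reported. The values deposited by the authors are log2 levels, 1 per probe set and array, made with GCRMA, which the submitters' processing notes name without a version. GCRMA subtracts a sequence-dependent background and normalizes by quantiles, so array medians are close by construction and dim probe sets pile up at the floor of 2.22.

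Of 31099 probe sets, 57 controls were left out; 20826 had 1 gene symbol in the platform annotation, 436 several and 9780 none. Of the 20826, 20758 had their gene identifier in RefSeq. Probe sets at or above 5 on at least 4 of 16 arrays were fitted in R 4.3.3 with limma 3.58.1 (lmFit, eBayes) with 4 group means, so all arrays share the estimate of spread, and p-values were adjusted by Benjamini-Hochberg. The pipeline was tested on simulated data. A gene is its tested probe set with the highest mean over 16 arrays. Other tested probe sets of called genes numbered 320; 313 changed in the same direction and 126 were called. Levels of different probe sets are not comparable, and the number of arrays limits precision. Since no label ties arrays to rats, p-values measure the spread between these arrays.

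The 45 gene lists (1118 symbols, 970 matched), the rule for named genes and the comparison itself were chosen with earlier results of these data known. The rule names the 12 largest robust rises and falls without locus-number symbols, up to 6 called members of each list with the smallest p (or the 1 smallest where none was called), and a set of ERK, STAT, NFKB and apoptosis genes: 153 genes, 149 tested. Of the others, Fgb and Socs3 did not reach the minimum level, and the rest are not reported here. Alternatives were normalization, minimum level, thresholds, blocks, array weights and leaving out each array.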

Additional observations from a re-analysis of the deposited data

Results flagged for a closer look

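In groups of 4, an array was marked where its gap to the nearest other, divided by the range, exceeded Dixon's critical value at the 95% level. This held in 25 of 275 groups tested, where chance alone marks about 1 in 20. Sham replicate 1 was the marked array in 9. It was lowest at 12.07 for Aqp9, 9.81 for Clcn3, 9.13 for Cmahp, 10.58 for Herpud1, 8.67 for Lef1, 5.80 for Mfsd2a, 7.78 for Pdk1, 4.57 for Plvap and 6.75 for Slc52a3. Replicate 4 at 18 h was marked in 6, lowest at 7.57 for Akt2, 7.70 for Cxcl16, 10.35 for Mt2A, 6.08 for Spry4, 9.58 for Steap4 and 8.83 for Txnrd1. Sham replicate 2 was marked at 8.72 for Cldn4, 8.29 for Ddit4, 7.81 for Kdr, 6.61 for Krt7 and 6.99 for Stat6, and sham replicate 3 at 9.23 for Bok. Replicate 3 at 18 h was marked at 6.87 for Cldn1, 13.03 for Cst8 and 9.35 for Dapk1, and 18 h replicate 1 at 8.58 for Nfkbia.

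The level at 18 h differed from that at 6 h in 1057 probe sets by limma's adjusted p. Among the genes always named or heading the rises, the 18 h minus 6 h difference was 6.60 for Mmp7, 6.49 for Krt17, 4.55 for Ccl2, 3.59 for Atf3, 3.31 for Ubd, 3.24 for Nags, 3.21 for Fgg, 3.03 for Slc7a11, 2.95 for Fga, 2.87 for Klf5, 2.50 for A2m, 2.42 for Cdkn1a, 2.04 for Egr1, 1.93 for Myc, 1.30 for Stat3, 0.81 for Nfkbia and 0.77 for Gadd45a. For the falls it was -5.24 for Cmahp, -4.95 for Slc52a3, -4.30 for Nkd2, -3.53 for Acy3, -3.48 for Mogat1, -3.36 for Etv4, -3.34 for Pdgfrl, -3.0 for Etv5, -2.07 for Etv1 and -0.79 for Ggt1.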

How the results depend on the processing

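Of 3222 results of the 135 called named genes under the alternatives, 2760 kept direction and call, 462 kept direction without the call and 0 reversed, and 101 of the 135 kept the call in all 8 fits without 1 array. Against 1362 probe sets and 927 genes, the counts were 827 and 586 with only these 8 arrays, 2111 and 1406 with arrayWeights, 602 and 394 at a change of at least 2-fold, and 638 and 444 at an adjusted p under 0.01. Without a minimum level 609 genes were called. Within replicates 1 and 2 alone there were 828 probe sets and 525 genes, and within replicates 3 and 4 alone 508 genes. The array numbers are no known pairing (lowest correlation of same-numbered deviations 0.0065, and not every array correlated best with its own number): a replicate block gave 2165 and 1413, and a block of the 2 pairs of replicates 2179 and 1392. The array set block gave 1357 and 905, and 24 of the 135 named calls were lost with it. Left out 1 at a time, arrays gave 879 to 1371 probe sets and 603 to 942 genes. For 18 h against 12 h (0 probe sets), the replicate block and that of pairs each gave 2, arrayWeights 56 and leaving out 1 array 0 to 53. For 18 h against 6 h (1057), the replicate block gave 1927, the block of pairs 2030, no minimum level 642 and leaving out 1 array 661 to 1159. Reversals were confined to uncalled named genes: within replicates 3 and 4, Bcl2l1 was at -0.11, Hbb at -0.34 and Lpl at -0.86, and within replicates 1 and 2 Penk was at 0.18. Leaving out 1 array, Hbb ranged from -0.04 to 0.42 and Penk from -0.30 to 0.04. The causes were not tested. Levels under 5 set a limit throughout, since their changes are bounds.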

Other observations

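Lipid and oxygen-related genes moved singly. Of 31 tested genes of cholesterol and fatty acid synthesis, Acss2, which makes acetyl-CoA from acetate, rose by 1.18 ± 0.24 (adjusted p = 0.00513) and 3 fell, with a median of -0.08. Scd2, a stearoyl-CoA desaturase, went from 13.33 to 12.19, a fall by 1.14 ± 0.18 (adjusted p = 0.000931). The falls of Lss and Sc5d were lost in 6 and 5 of the 8 fits without 1 array. Their other tested probe sets were not called. These stood at -0.54 for Lss (adjusted p = 0.248) and at -0.14 and -0.31 for Sc5d (adjusted p = 0.735 and 0.484). Of the list's 4 calls 2 were left without sham replicate 4 or 18 h replicate 3. Of 27 hypoxia and glycolysis genes 4 rose and 3 fell, beside 5.99% and 5.12% of all tested genes. These 7 calls became 4 without sham replicate 2 or 3. Slc2a1, a glucose transporter, rose by 0.75 ± 0.16 and Higd1a, a mitochondrial protein induced by low oxygen, by 0.62 ± 0.12. Another tested Higd1a probe set, at 0.33, was not called (adjusted p = 0.244). The falls of this list included Egln3, given above, at -2.78 (adjusted p = 7.59e-05). Pdk1 fell by 0.91 (adjusted p = 0.0206) and lost the call in 5 of the 8 fits.

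Clock genes also changed in both directions, and the hour of day at which tissue was taken is not given in the labels. Of 15 tested, 2 rose and 3 fell, beside 5.99% and 5.12% of all tested genes. The 5 calls became 2 without sham replicate 4 or with the array set block and 3 without 18 h replicate 1. Bhlhe41, a clock repressor, measured 8.78, 7.66, 8.36 and 8.17 in sham and 9.82, 9.82, 9.72 and 10.13 at 18 h, a rise of 1.63 ± 0.25 (adjusted p = 0.000825). Clock fell by 0.42 ± 0.09 (adjusted p = 0.0112), and Per2, lower by 0.90, lost its call in 3 of the 8 fits. Nags, which makes the activator of the urea cycle, went from a mean of 2.95 to 6.37 (adjusted p = 0.00573), at least 1.38 with low arrays counted as 5.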
